A study of Drosophila melanogaster with 15 samples.

Results

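The genes described here encode subunits of the vacuolar proton pump (V-ATPase) of *Drosophila melanogaster*. Members were taken by name, as every locus whose listed gene names include a symbol that starts with Vha and whose estimate was marked OK in all 15 libraries. This gave 18 loci of 16 genes among the 10350 loci analysed, and all 18 loci with such a name passed the status filter. The reference gene table used for names holds 33 *Vha* genes, of which 17 had no such locus and were not analysed here, among them the core genes *Vha13*, *Vha14-1*, *Vha36-1*, *VhaM9.7-b* and *VhaPPA1-1*. By symbol and general knowledge of where each gene is active in adult flies, 9 genes on 11 loci were set down as core epithelial, 4 genes as testis-limited and 3 genes as other paralogs. Whole flies give no tissue of their own for any gene, so these classes could not be checked directly.

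The V-ATPase is a rotary enzyme. Its cytoplasmic V1 sector (subunits A to H) hydrolyses ATP, and the rotation drives protons through the membrane-bound V0 sector, built from a ring of c subunits, the large subunit a, subunit d and accessory proteins. In nearly all cells the pump acidifies lysosomes and endosomes, and in insect Malpighian tubules and gut it crowds the apical membrane, where the proton gradient powers ion and fluid transport. Flies encode most subunits by small gene families, in which a broadly active member is accompanied by paralogs of narrow expression, many of them in testis.

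The study asked how loss of the dystrophin glycoprotein complex, a membrane complex that links the cytoskeleton to the extracellular matrix, alters the transcriptome and its response to stress. RNA was sequenced from 1-week-old whole males, about 10 pooled per library, with 1 library for each of 5 genotypes in each of 3 conditions. *Dg* mutants (Dystroglycan) carried the alleles *Dg[O55]/Dg[O86]*. *Dys* mutants (Dystrophin) were homozygous for the deficiency *Df(3R)Exel6184*, which also removes neighbouring genes. *Syn1* mutants (Syntrophin-like 1) carried *deltaSyn1[5-2]* over *Df(3L)BSC450*, and *Nos* mutants (Nitric oxide synthase) carried *deltaNos15* over *Df(2L)BSC230*, so that 1 copy of further genes is missing in each. Control flies were *CantonS/w[1118]*. Temperature stress was 5 days at 33C, metabolic stress was 4 days on yeast paste without sugar, and unstressed flies were kept for 5 days at 25C on standard food.

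No group has a replicate, so the 5 genotypes served as repeats of each stress and the 3 conditions as repeats of each genotype, and p-values measure the spread between these libraries. Both stresses were set against the same unstressed libraries, and all mutants against the same control libraries. Values are FPKM as the authors deposited them. The files used here hold no read totals per library, and the study gives an average over samples alone. Whole-fragment steps among the lowest values put the relative depth of the libraries between 0.798 and 1.12 of the unstressed control library. The titles of the unstressed *Dys*, *Syn1* and *Nos* samples name the mutant and also the control genotype, and the genotype field, which gives the mutant alleles, was followed. As a check of the labels, all 12 loci that list *Dys* alone were at 0 in the 3 *Dys* libraries and *Syn1* was at 0 in the 3 *Syn1* libraries, against 6.07 to 7.60 FPKM in control. *Nos*, which shares its locus with *CG6700*, had 17.7 to 27.2 FPKM in *Nos* mutants and 31.2 to 45.4 FPKM in control, a check weakened by the joint locus, and *Dg* had 12.5 to 19.3 FPKM in *Dg* mutants and 12.9 to 14.2 FPKM in control, so the *Dg* label could not be checked by RNA level. In bulk RNA, fewer cells of a type and less RNA per cell cannot be told apart.

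Levels of the pump genes spanned a wide range on the FPKM scale, which is corrected for length. *Vha16-1*, the c subunit of the proton-carrying ring, had the highest mean over the 15 libraries, 323 FPKM, and *Vha68-2*, the catalytic A subunit, followed among genes alone on their locus with 150 FPKM. The other core genes alone on their locus had means of 95.3 FPKM (*Vha55*), 61.7 FPKM (*VhaAC45*), 59.7 FPKM (*VhaAC39-1*), 38.4 FPKM (*VhaSFD*), 36.5 FPKM (*Vha44*) and 18.0 FPKM (*Vha26*). 3 loci list other genes as well, and their levels cannot be given to the pump gene alone. The locus of *Vha100-1* also lists *CG11873*, *CG11876*, *CG14516* and *Pkc98E* and had a mean of 177 FPKM, that of *Vha100-2* also lists *CG31122* and *fru* (90.9 FPKM), and that of *Vha100-3* also lists *sano* (55.96 FPKM). The methods of the study describe counts of reads mapped to a unique transcript, and whether the FPKM values treated reads shared by paralogs in that way is not stated. Positions below are as listed with the deposited values, whose build is not given in the sources used here. Set against BDGP6, they overlapped the gene of the same name at 94.4% of single-gene loci on arm 2L, 64.5% on 3L, 6.67% on X and none on arms 2R and 3R.

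In the V1 sector, *Vha68-2* (2L:12974281-12981600) encodes subunit A, which binds and hydrolyses ATP. At 33C it had 124, 137, 158, 152 and 132 FPKM in *Dg*, *Dys*, *Syn1*, *Nos* and control flies, and on the yeast diet 214, 158, 158, 154 and 218 FPKM, against 126, 97.2, 134, 149.8 and 138 FPKM unstressed. The 5 yeast libraries all lay above the 5 unstressed ones, whereas the 33C libraries spread across both. *Vha55* (3R:8448774-8462177) encodes subunit B, which pairs with A in the catalytic head. Levels in *Dg*, *Dys*, *Syn1*, *Nos* and control flies were 79.6, 67.4, 101, 82.3 and 78.4 FPKM at 33C and 150.3, 88.96, 109.7, 108 and 129 FPKM on the yeast diet, against 93.99, 60.7, 104, 90.05 and 86.8 FPKM unstressed. Within each genotype the yeast library was the highest, and the *Dys* library was the lowest in each condition. *Vha44* (2R:12209689-12236322) encodes subunit C, a stalk protein that leaves the complex when V1 and V0 come apart. The libraries at 33C held 40, 28.7, 31.1, 29.98 and 29.4 FPKM in *Dg*, *Dys*, *Syn1*, *Nos* and control flies and those on the yeast diet 43.3, 35.5, 37.6, 37.2 and 61.1 FPKM, against 30.1, 30.7, 37.2, 38.8 and 36.8 FPKM unstressed. The control library on yeast stood above all the others, which lay between 28.7 and 43.3 FPKM.

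*Vha26* (3R:1414469-1511086) encodes subunit E of the peripheral stalk, and its listed span of 96618 bases was the widest of any core gene alone on its main locus. Values of 21.5, 19.4, 17.6, 19.04 and 18.6 FPKM were measured at 33C in *Dg*, *Dys*, *Syn1*, *Nos* and control flies, and of 23.4, 16.2, 15.9, 16.6 and 20.2 FPKM on the yeast diet, against 20.8, 13.7, 15.1, 16.7 and 15.9 FPKM unstressed. The 3 *Dg* libraries were above the control library of the same condition, and the groups at 33C and unstressed overlapped although 33C was higher within each genotype. *VhaSFD* (2L:16715088-16732153) encodes subunit H, which is needed for pump activity and quiets the ATPase of free V1. It had 28.6, 23.1, 38.3, 33.5 and 25.9 FPKM at 33C and 61.2, 22.8, 40.03, 38.8 and 72.7 FPKM on the yeast diet in *Dg*, *Dys*, *Syn1*, *Nos* and control flies, against 36.9, 24.1, 41.1, 43.4 and 45.2 FPKM unstressed. The 3 *Dys* libraries lay below all 3 control libraries, and yeast was well above unstressed in *Dg* and control flies alone.

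In the V0 sector, *Vha16-1* (2R:2512594-2520864) encodes the main c subunit. At 33C it had 189, 171, 328, 303 and 236 FPKM in *Dg*, *Dys*, *Syn1*, *Nos* and control flies, and on the yeast diet 437, 342, 403, 393 and 682 FPKM, against 204, 188, 285, 329.6 and 348 FPKM unstressed. All 5 yeast libraries were above all 5 libraries at 33C, and the yeast library was the highest of its genotype each time. *VhaAC39-1* (X:3774525-3777725) encodes subunit d, which joins the central stalk to the c ring. Levels in *Dg*, *Dys*, *Syn1*, *Nos* and control flies were 43.5, 35.6, 65.8, 55.04 and 44.9 FPKM at 33C and 92.9, 53.6, 65.7, 65.98 and 101 FPKM on the yeast diet, against 49.5, 35.6, 57.96, 62.5 and 65.3 FPKM unstressed. Yeast was above unstressed within every genotype, with wide overlap between the groups, and *Dys* was the lowest genotype in every condition. *VhaAC45* (2R:5091890-5097475) encodes the Ac45 accessory subunit, which in mammals guides the pump to secretory compartments. The libraries at 33C held 47.1, 38.8, 61.5, 57.7 and 47.2 FPKM in *Dg*, *Dys*, *Syn1*, *Nos* and control flies and those on the yeast diet 86.3, 62.6, 74.7, 70.6 and 111 FPKM, against 47.4, 37.7, 57.1, 59.9 and 65.97 FPKM unstressed. The yeast libraries did not overlap with those at 33C, and control at 33C was lower than unstressed control while the 4 mutants hardly differed between these conditions.

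The main *Vha100-2* locus (3R:14340783-14371324) carries a subunit a gene, whose product forms the proton half-channels and directs the pump to its membrane. Values of 54.9, 65.2, 124, 145 and 71.7 FPKM were measured at 33C in *Dg*, *Dys*, *Syn1*, *Nos* and control flies, and of 126, 90.96, 86.8, 126 and 148 FPKM on the yeast diet, against 55.7, 42.1, 67.8, 84.5 and 73.9 FPKM unstressed. The yeast libraries were all above the unstressed ones, and *Dys*, *Syn1* and *Nos* flies were also higher at 33C than unstressed. 2 further loci list *Vha100-2* alone at 3R:14207453-14332330 and were hardly detected. The first, minor locus 1, had in *Dg*, *Dys*, *Syn1*, *Nos* and control flies 2.91, 1.99, 0.274, 1.58 and 1.38 FPKM at 33C and 1.66, 1.17, 0.636, 1.24 and 0.627 FPKM on the yeast diet, against 1.94, 1.19, 1.29, 0.942 and 1.32 FPKM unstressed. All 3 *Dg* libraries were above all control libraries there. The second, minor locus 2, had in the same order of genotypes 1.82, 0.806, 0.222, 0.586 and 0.502 FPKM at 33C and 0.448, 1.12, 0.257, 0.501 and 0.634 FPKM on the yeast diet, against 0.505, 1.02, 0.156, 0.334 and 0.75 FPKM unstressed. Its *Dys* libraries lay above and its *Syn1* libraries below all control libraries, and neither difference passed the test described below (adjusted p = 0.31 in *Dys* and 0.29 in *Syn1* flies). The values came to between 1 and 11 fragments per library at minor locus 1 and between 3 and 34 at minor locus 2, when read as whole multiples of the smallest step, so their ratios rest on few reads.

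**Figure D1:**
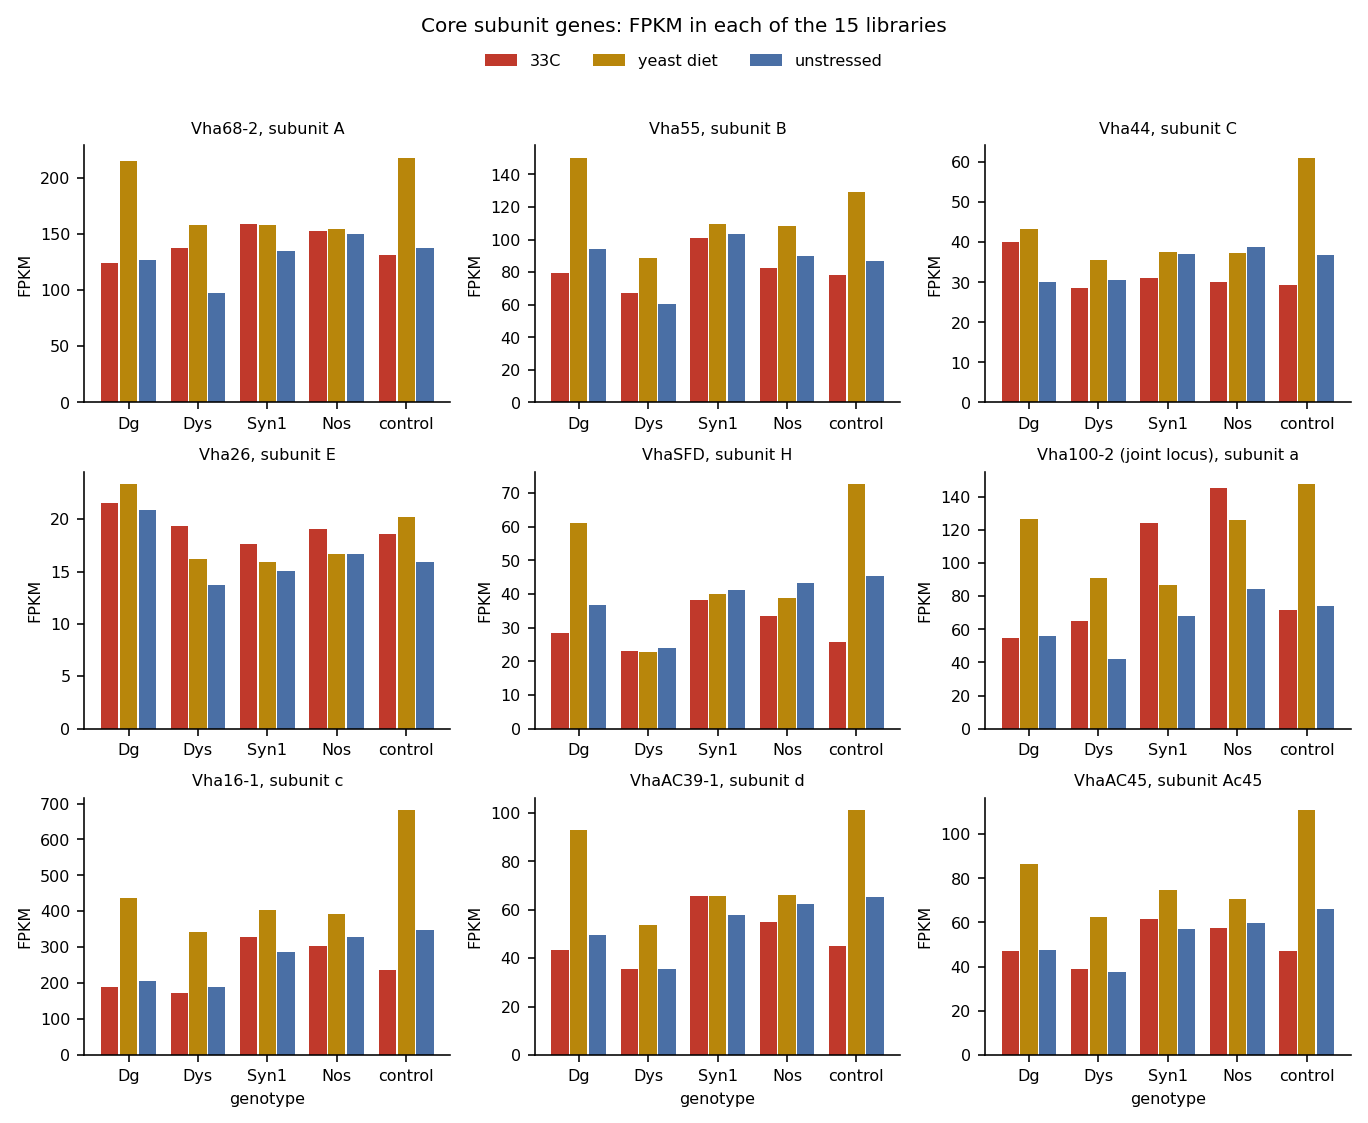
FPKM (vertical axes, from 0) of the 9 core subunit genes at their main loci, 1 bar for each of the 15 libraries, grouped by genotype and coloured by condition, with no error bars because each bar is 1 library. The yeast bar is the highest of its genotype in all 5 genotypes for *Vha16-1*, *Vha55* and *VhaAC45*, and the *Dys* bars of *VhaSFD* lie at 22.8 to 24.1 FPKM.

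Of the testis-limited paralogs, *Vha36-2* (2R:8144419-8146527) encodes a form of subunit D of the central rotor. It had 47.01, 59.4, 34.9, 41.5 and 52.1 FPKM at 33C and 44.04, 63.8, 46.1, 48.5 and 36.9 FPKM on the yeast diet in *Dg*, *Dys*, *Syn1*, *Nos* and control flies, against 47.96, 56.8, 48.4, 40.5 and 43.8 FPKM unstressed. The 3 *Dys* libraries lay above all 3 control libraries. *Vha14-2* (3R:1947462-1950370) encodes a subunit F paralog, which binds D in the rotor. At 33C it had 22.02, 16.6, 6.54, 10.4 and 12.8 FPKM in *Dg*, *Dys*, *Syn1*, *Nos* and control flies, and on the yeast diet 19.7, 22.1, 18.8, 19.6 and 9.72 FPKM, against 28.01, 26.7, 15.6, 17.5 and 13.4 FPKM unstressed. All *Dg* and *Dys* libraries were above all control libraries, and within every genotype 33C was below unstressed.

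*Vha100-3* (2R:14765845-14847014) is a subunit a paralog on the locus that also lists *sano*, a gene of epithelial planar polarity. Levels in *Dg*, *Dys*, *Syn1*, *Nos* and control flies were 78.7, 94.05, 51.2, 56.9 and 73.97 FPKM at 33C and 55.5, 53.7, 38.6, 43.6 and 32.2 FPKM on the yeast diet, against 69.7, 57.8, 44.6, 46.9 and 42.02 FPKM unstressed. Within each genotype the order was 33C above unstressed above yeast, with overlap between the conditions. *Vha100-5* (2L:11738849-11747319) is a further subunit a paralog. The libraries at 33C held 7.75, 9.25, 14.7, 18.2 and 9.97 FPKM in *Dg*, *Dys*, *Syn1*, *Nos* and control flies and those on the yeast diet 10.6, 18.2, 8.4, 20.03 and 30.1 FPKM, against 9.77, 5.3, 11.2, 13 and 14.1 FPKM unstressed. The control library on yeast was the highest of the 15, and the unstressed *Dys* library the lowest.

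Of the other paralogs, *Vha100-1* (3R:24852113-24916696) is a subunit a gene on a joint locus, known for its part at synapses and in photoreceptors. Values of 139.6, 132, 184, 169.9 and 162 FPKM were measured at 33C in *Dg*, *Dys*, *Syn1*, *Nos* and control flies, and of 220.2, 159, 181, 196 and 211 FPKM on the yeast diet, against 160.2, 151, 200.3, 201 and 191 FPKM unstressed. The 3 *Dys* libraries lay below all control libraries, and within every genotype 33C was below unstressed. *Vha16-3* (3L:11465446-11468720) and *Vha16-2* (3L:11469626-11471434) are neighbouring c subunit paralogs. *Vha16-3* had 10.2, 10.5, 4.64, 5.14 and 8.65 FPKM at 33C and 9.08, 9.65, 10.5, 7.51 and 5.27 FPKM on the yeast diet in *Dg*, *Dys*, *Syn1*, *Nos* and control flies, against 11.8, 10.3, 8.71, 8.25 and 8.46 FPKM unstressed. All of its *Dg* and *Dys* libraries were above all of its control libraries. *Vha16-2* had in *Dg*, *Dys*, *Syn1*, *Nos* and control flies 0.312, 0.0975, 1.45, 0.774 and 0.324 FPKM at 33C and 0.163, 0.171, 1.5, 0.728 and 0.83 FPKM on the yeast diet, against 0.816, 0.349, 1.44, 0.416 and 0.623 FPKM unstressed. The 3 *Syn1* libraries stood above all the others, at 16 to 19 fragments, against 4 to 9 in the control libraries.

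**Figure D2:**
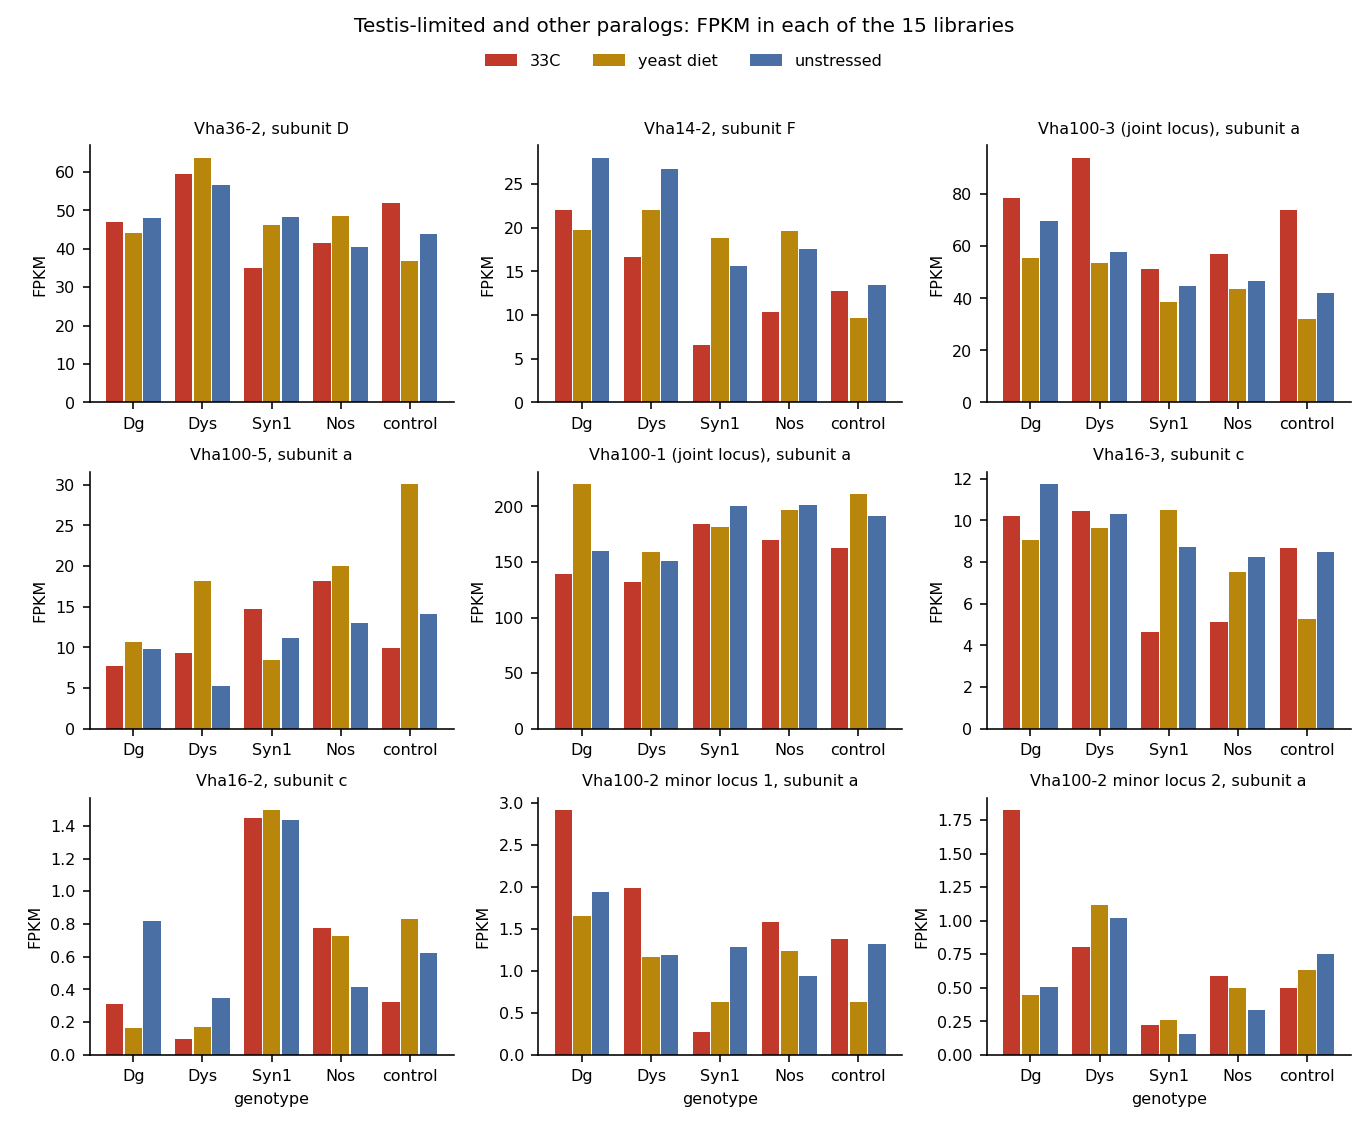
FPKM (vertical axes, from 0, each on its own scale) of the testis-limited and other paralogs and of the minor *Vha100-2* loci, 1 bar for each of the 15 libraries, grouped by genotype and coloured by condition, with no error bars because each bar is 1 library. *Vha14-2* has its highest bars in *Dg* and *Dys* flies, and *Vha16-2* in *Syn1* flies, where it stays at 1.44 to 1.496 FPKM.

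On the yeast diet 3 core pump genes alone on their locus were higher than in unstressed flies, the c subunit gene *Vha16-1*, the accessory subunit gene *VhaAC45* and the B subunit gene *Vha55*, as was the joint locus that lists *Vha100-2*. In all, 4 of the 18 members rose and none fell, where 2.93% of all loci were called, 2.57% higher and 0.357% lower (limma's moderated test of the condition term with Benjamini-Hochberg adjustment over the 10350 loci, called at an adjusted p under 0.1). *Vha16-1* rose by a log2 difference of 0.73 ± 0.16 (SE, 5 of 5 genotypes, adjusted p = 0.060). *VhaAC45* rose by 0.58 ± 0.13 (log2, 5 of 5 genotypes, adjusted p = 0.060) and *Vha55* by 0.43 ± 0.11 (log2, 5 of 5 genotypes, adjusted p = 0.093). The joint *Vha100-2* locus rose by 0.83 ± 0.22 (log2, 5 of 5 genotypes, adjusted p = 0.098), which cannot be given to *Vha100-2* itself, and the minor loci that list it alone had -0.19 (adjusted p = 0.70) and 0.04 (adjusted p = 0.95). *Vha68-2* and *VhaAC39-1* were also higher in all 5 genotypes but did not pass (log2 0.48, adjusted p = 0.12, and log2 0.47, adjusted p = 0.19). The testis-limited *Vha100-5* had a mean log2 ratio of 0.59, with ratios of -0.38 in *Syn1* flies and 0.11 to 1.61 in the other 4 genotypes (adjusted p = 0.38). Over the 9 main core loci all mean log2 differences were positive with a median of 0.47, against a median of -0.02 over all loci.

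The ratios ranged widely between genotypes, each from a single pair of libraries, and no difference between single genotypes was tested. Summed FPKM of the 11 core loci on yeast was 1.85-fold the unstressed sum in *Dg*, 1.64-fold in *Dys*, 1.24-fold in *Syn1*, 1.16-fold in *Nos* and 1.76-fold in control flies. *Vha16-1* had log2 ratios of 1.09 (*Dg*), 0.86 (*Dys*), 0.50 (*Syn1*), 0.25 (*Nos*) and 0.97 (control). *VhaSFD* had 0.72 in *Dg* and 0.67 in control flies, against -0.16 to -0.04 in the other 3 genotypes. The calls depended on the settings. A pseudocount of 0.1 left 1 call, that of *Vha16-1* (adjusted p of 0.101 for *VhaAC45*, 0.16 for *Vha55* and 0.14 for the joint *Vha100-2* locus), and 0 members passed at an adjusted p of 0.05. With control, *Dg* or *Dys* left out, 0 members were called (6, 5 and 6 at an unadjusted p under 0.05) while the calls over all loci dropped to 67, 41 and 43, against 303 with all 5 genotypes. With all 5 genotypes 6 of the 18 members and 14.5% of all loci had an unadjusted p under 0.05 in limma's test. That share of all loci was not counted in the fits that left out a genotype. Without *Nos* 2 members were called.

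At 33C most core genes did not differ detectably from unstressed flies. 3 of the 18 members were called, where 26.1% of all loci were, 13.8% higher and 12.3% lower. *Vha26*, subunit E, rose by a log2 difference of 0.22 ± 0.08 (SE, 5 of 5 genotypes, adjusted p = 0.079). The joint *Vha100-3* locus rose by 0.43 ± 0.12 (log2, 5 of 5 genotypes, adjusted p = 0.032), and *Vha14-2*, a paralog of subunit F, fell by 0.58 ± 0.21 (log2, 5 of 5 genotypes, adjusted p = 0.078). The other 8 main core loci had mean log2 differences of -0.33 to 0.44, with adjusted p of 0.19 to 0.73, and the median of the 9 was -0.08, against -0.01 over all loci. Control flies had the lowest log2 ratio of the 5 genotypes for *Vha16-1* (-0.56), *VhaAC45* (-0.48), *VhaAC39-1* (-0.53) and *VhaSFD* (-0.78). Summed core FPKM at 33C was 0.948-fold the unstressed sum in *Dg*, 1.11-fold in *Dys*, 1.16-fold in *Syn1*, 1.00-fold in *Nos* and 0.781-fold in control flies. The joint *Vha100-1* locus, lower in 5 of 5 genotypes, did not pass (log2 -0.20, adjusted p = 0.17). Without *Dys* 0 of the 18 members passed in limma's test (1 at an unadjusted p under 0.05), and without *Syn1* or *Nos* 1 did. The calls over all loci dropped as well in each of these fits, from 2699 with all 5 genotypes. With all 5 genotypes 3 of the 18 members and 32.9% of all loci had an unadjusted p under 0.05 in limma's test. That share of all loci was not counted in the fit without *Dys*.

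The direct comparison of 33C with the yeast diet, in which the unstressed libraries enter the estimate of spread alone, gave more calls. 8 of the 18 members were lower at 33C and 1 was higher, where 20.3% of all loci were called lower and 20.3% higher. Among them were 7 of the 9 main core loci. *Vha16-1* was lower at 33C by a log2 difference of -0.88 ± 0.16 (SE, 5 of 5 genotypes, adjusted p = 0.0032). *VhaAC45* was lower by -0.66 ± 0.13 (5 of 5 genotypes, adjusted p = 0.0043), *Vha55* by -0.51 ± 0.11 (5 of 5 genotypes, adjusted p = 0.0066) and *VhaAC39-1* by -0.61 ± 0.16 (4 of 5 genotypes, adjusted p = 0.015). *Vha44* (-0.40, adjusted p = 0.051), *VhaSFD* (-0.56, adjusted p = 0.053), *Vha68-2* (-0.34, adjusted p = 0.075) and the joint *Vha100-1* locus (-0.30, adjusted p = 0.035) were lower as well. The joint *Vha100-3* locus was higher at 33C by 0.65 ± 0.12 (5 of 5 genotypes, adjusted p = 0.0029). The calls of *Vha16-1*, *VhaAC45*, *Vha55*, *VhaAC39-1* and *Vha100-3* held in all 9 alternatives of the fit, whereas leaving out control removed those of *Vha44*, *VhaSFD*, *Vha68-2* and *Vha100-1*, and 6 members in all were called without control.

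Ratios between subunits were compared within libraries. The FPKM ratio of *Vha16-1* to *Vha68-2*, a pair chosen after its values were seen and therefore not tested, was 1.52, 1.25, 2.07, 1.99 and 1.79 at 33C in *Dg*, *Dys*, *Syn1*, *Nos* and control flies. It was 2.04, 2.17, 2.55, 2.55 and 3.13 on yeast, against 1.62, 1.93, 2.12, 2.20 and 2.53 in unstressed flies of the same genotypes. In all 5 genotypes the c subunit was lower relative to the A subunit at 33C than unstressed, and higher on yeast than unstressed. The ratio of *Vha16-1* to *Vha55* did not follow at 33C, being lower than unstressed in 2 of 5 genotypes, and was higher on yeast than unstressed in 4 of 5. The ratio of *Vha55* to *Vha68-2*, both in the catalytic head, was lower at 33C than unstressed in 5 of 5 genotypes, and on yeast was above unstressed in 1 of 5.

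**Figure D3:**
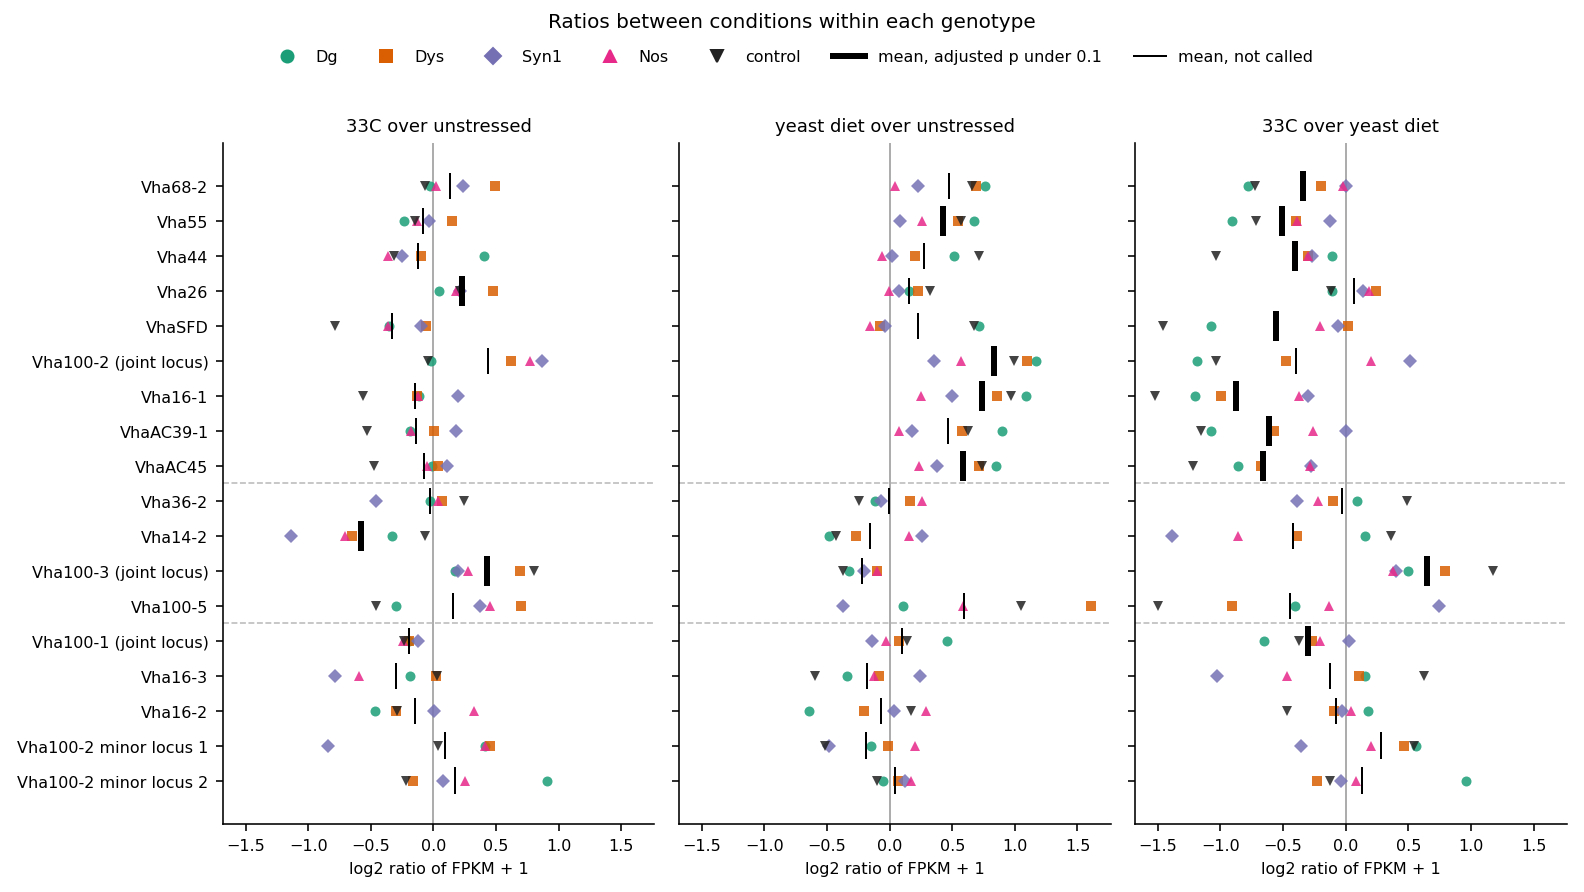
Log2 ratio of FPKM + 1 (horizontal axes) between conditions within each genotype for the 18 loci, with core main loci above the first dashed line, testis-limited loci between the lines and the others below, 1 symbol per genotype, and a bar at the mean that is thick where adjusted p was under 0.1. In the panel of yeast over unstressed all 5 symbols lie right of 0 for *Vha16-1*, *Vha55*, *VhaAC45*, *VhaAC39-1*, *Vha68-2* and the joint *Vha100-2* locus.

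Whether the mutants as a group responded otherwise than control was tested by a term for the control response. No member was called for either stress, nor was any of the 10350 loci (0% called). At an unadjusted p under 0.05 there were 0 members for either stress, beside 383 loci at 33C (3.70%) and 390 on yeast (3.77%). For the 9 main core loci the response of the mutants minus that of control at 33C was positive each time, with a median of 0.48 and a range of 0.02 to 0.60 on the log2 scale, and on yeast negative each time, with a median of -0.21 and a range of -0.56 to -0.18. Over all 10350 loci the medians were 0.01 at 33C and 0.02 on yeast, with 5353 loci positive at 33C and 4939 negative on yeast. The values of the core loci share the 3 control libraries, each of which is a single pool. With 1 control library per condition, a difference in that library and a difference between mutants and control cannot be told apart.

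In *Dys* flies 6 of the 18 members were lower than in control flies and 3 were higher, where 42.0% of all loci were called (21.6% lower and 20.3% higher). The share of members called was thus near that of all loci, which was itself the highest of the 4 mutants. Of the 9 main core loci 5 were lower and none higher. *VhaSFD* had a log2 difference from control of -0.89 ± 0.25 (SE, 3 of 3 conditions, adjusted p = 0.023), *Vha16-1* of -0.78 ± 0.21 (3 of 3, adjusted p = 0.019), *VhaAC39-1* of -0.70 ± 0.20 (3 of 3, adjusted p = 0.026), *VhaAC45* of -0.63 ± 0.17 (3 of 3, adjusted p = 0.018) and *Vha55* of -0.42 ± 0.14 (3 of 3, adjusted p = 0.044). The joint *Vha100-1* locus was lower by -0.35 ± 0.12 (log2, 3 of 3, adjusted p = 0.0503). All 9 main core loci had negative means, with a median of -0.54 against -0.02 over all loci, and summed core FPKM in *Dys* flies was 0.606-fold that of control unstressed, 0.860-fold at 33C and 0.565-fold on yeast. The paralogs *Vha14-2* (0.80 ± 0.27, adjusted p = 0.043), *Vha100-3* with its joint locus (0.51 ± 0.15, adjusted p = 0.030) and *Vha36-2* (0.44 ± 0.15, adjusted p = 0.050) were higher in 3 of 3 conditions, so that 3 of the 4 testis-limited loci were called. The fourth, *Vha100-5*, had lower values than control in 3 of 3 conditions without passing (log2 -0.68, adjusted p = 0.17), and *Vha16-3*, above control in 3 of 3, did not pass (0.42, adjusted p = 0.20). Without the unstressed libraries no member was called (1 at an unadjusted p under 0.05), and the calls over all loci dropped to 1448, against 4344 with all libraries. With all libraries 10 of the 18 members and 43.9% of all loci had an unadjusted p under 0.05 in limma's test. That share of all loci was not counted in the fit without the unstressed libraries. Without the yeast libraries 4 members were called, and without a condition term 2 were.

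In *Dg* flies 4 of the 18 members were called, where 24.6% of all loci were. *Vha16-1* was lower by a log2 difference of -0.58 ± 0.21 (SE, 3 of 3 conditions, adjusted p = 0.089). *Vha14-2* was higher by 0.90 ± 0.27 (3 of 3, adjusted p = 0.045), the joint *Vha100-3* locus by 0.52 ± 0.15 (3 of 3, adjusted p = 0.041) and minor locus 1 of *Vha100-2* by 0.59 ± 0.22 (3 of 3, adjusted p = 0.099), the last at 6 to 11 fragments in *Dg* libraries against 2 to 5 in control libraries. *Vha100-5* and *Vha16-3* did not pass (-0.74, adjusted p = 0.19, and 0.44, adjusted p = 0.22). The other 8 main core loci ranged from -0.34 to 0.26 with adjusted p of 0.12 to 0.80. Without the unstressed libraries 0 members passed (1 at an unadjusted p under 0.05), without the yeast libraries 1, and without a condition term 0 (2 at an unadjusted p under 0.05). In the main fit 5 of the 18 members and 32.5% of all loci had an unadjusted p under 0.05 in limma's test. That share of all loci was not counted in the fits without some libraries or without the condition term.

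In *Syn1* flies 1 of the 18 members was called, where 10.6% of all loci were, 4.95% higher and 5.70% lower. *Vha16-2*, a c subunit paralog with low values, was higher by a log2 difference of 0.64 ± 0.17 (SE, 3 of 3 conditions, adjusted p = 0.046), a call that rests on few reads and was lost without the unstressed libraries (adjusted p = 0.19) and without those at 33C (adjusted p = 0.30). No member was called in *Nos* flies, and 0 had an unadjusted p under 0.05 in limma's test, where 10.3% of all loci were called, 4.24% higher and 6.10% lower, and 20.5% had such a p. In both mutants the sum of the core loci lay above control at 33C and below it on yeast. It was 1.35-fold control at 33C, 0.643-fold on yeast and 0.913-fold unstressed in *Syn1* flies, and 1.28-fold, 0.656-fold and 0.999-fold in *Nos* flies. Single genes did the same, with the log2 ratio to control above 0 at 33C and below 0 on yeast for 9 of 9 main core loci in *Nos* and for 8 of 9 in *Syn1* flies, the exception being *Vha26*. How many of all loci had this pattern was not counted, and both mutants were set against the same single control library in each condition. Against a change of at least 2-fold (limma treat with a log2 threshold of 1, unadjusted P under 0.1) 0 members were called in any comparison of a stress or a mutant. Of all loci this test called 0.792% at 33C, 0.783% on yeast, 2.07% for 33C against yeast, and 2.57% (*Dg*), 3.87% (*Dys*), 1.86% (*Syn1*) and 1.95% (*Nos*) for the mutants. All mutant comparisons share the control libraries, so their values stand side by side and are not independent.

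**Figure D4:**
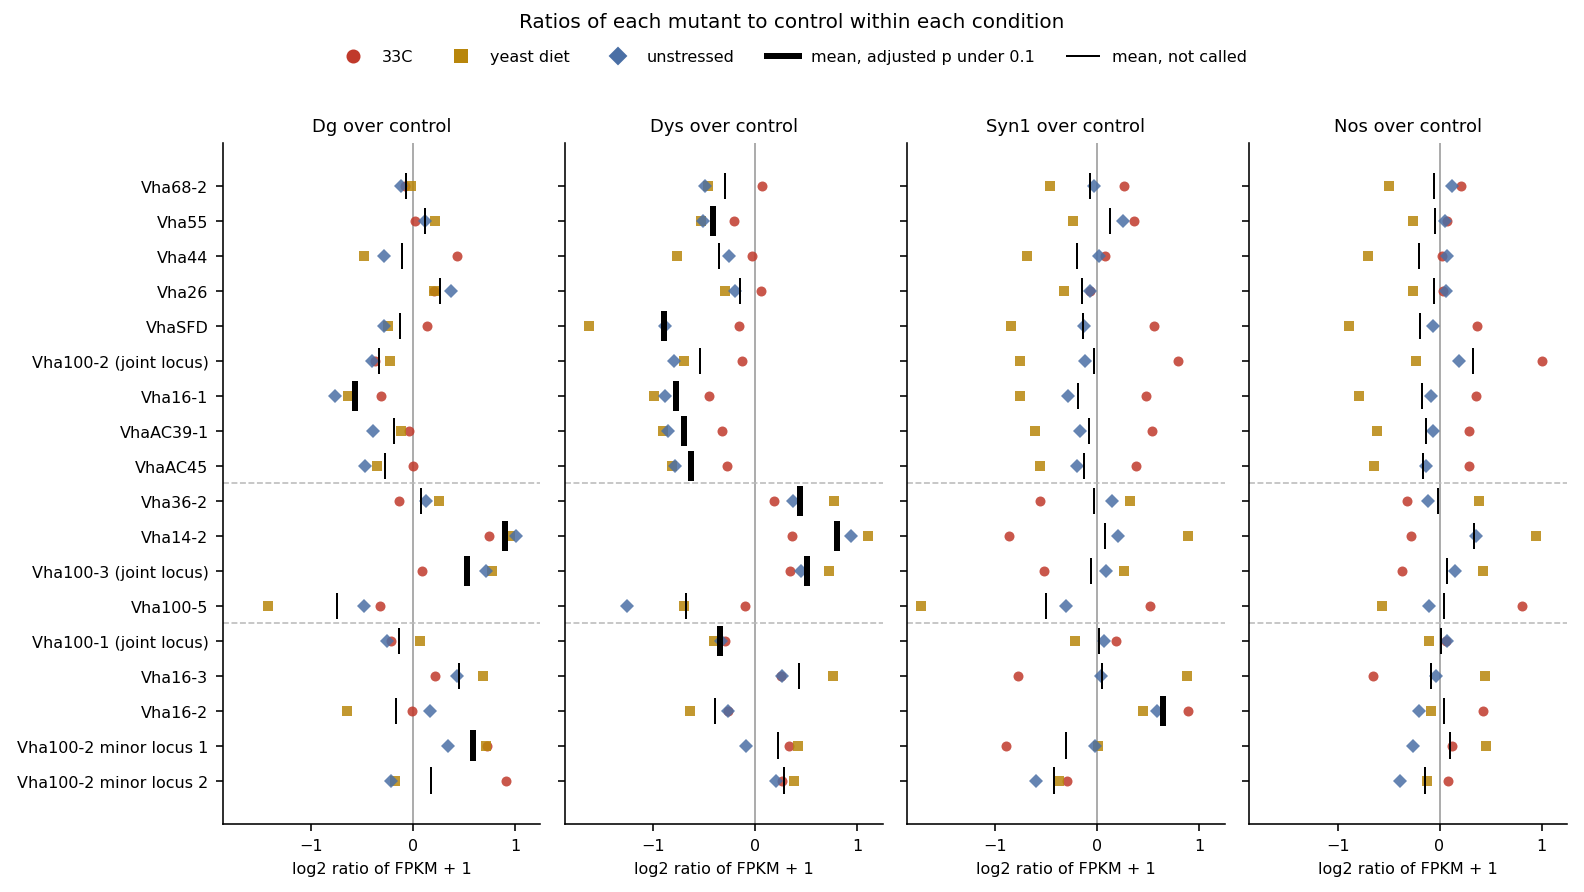
Log2 ratio of FPKM + 1 (horizontal axes) of each mutant to control in the same condition for the 18 loci, 1 symbol per condition, with a bar at the mean that is thick where adjusted p was under 0.1. In *Dys* flies the core genes *VhaSFD*, *Vha16-1*, *VhaAC39-1*, *VhaAC45* and *Vha55* lie left of 0 in 3 of 3 conditions, and in *Syn1* and *Nos* flies the 33C and yeast symbols of the 9 main core loci fall on opposite sides of 0, the exception being *Vha26* in *Syn1* flies.

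Genes that work with the pump were read from a list of partners and regulators. Its 31 symbols, some of them names of the same gene, gave 19 loci. On yeast 1 rose and none fell, where 2.57% of all loci were called higher, and 5 were lower at 33C than on yeast and none higher, where 20.3% of all loci were called each way. The counts of 1 higher and 5 lower are near those shares. The one that rose was *Mondo*, a sugar-responsive transcription factor (log2 0.47, adjusted p = 0.084). *Nha2*, a sodium and proton exchanger of transporting epithelia, was lower at 33C than on yeast (log2 -0.97, adjusted p = 0.0020) and lower in *Dys* than control flies (log2 -0.98, adjusted p = 0.0072). *Nha1* and *Nha2* are also among the tubule and epithelium markers below, so the counts of the lists share loci and are not independent. In *Dys* flies 12 of the 19 were lower and 1 higher, with a median of -0.46, where 21.6% of all loci were called lower and 20.3% higher. Among the 12, the loci of *Rbcn-3B*, *Mitf*, *snz*, *raptor* and *Nprl2* also list other genes and cannot be given to the partner alone. Those that were lower included *Rbcn-3A*, part of the RAVE-like complex that assembles V1 with V0 (log2 -0.48, adjusted p = 0.049), the sodium and proton exchanger *Nhe3* (-0.55, adjusted p = 0.015) and *Tor*, the growth kinase recruited to lysosomes (-0.48, adjusted p = 0.019). *Mitf*, whose mammalian relatives switch on pump and lysosome genes, shares its locus with *Caps*, and the locus had a log2 difference of -0.10 on yeast (adjusted p = 0.71) and was lower by -0.29 in *Dys* flies (adjusted p = 0.088).

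The 41 symbols of a lysosome list, some of them names of the same gene, gave 23 loci. 1 of these, *Claspin*, is a cell cycle gene that the list took in by an older name. On yeast 2 rose and none fell, with a median of 0.22, where 2.57% of all loci were called higher. At 33C 13 were lower and 2 higher than on yeast, where 20.3% of all loci were called each way. The lysosomal protease *CtsB* (log2 0.71, adjusted p = 0.037) and the lysosomal sugar and lipid carrier *spin* (0.57, adjusted p = 0.038) were those that rose on yeast. In *Dys* flies 9 were lower and 2 higher, with a median of -0.27, beside 21.6% lower and 20.3% higher among all loci. The locus with the highest mean of the list, 297 FPKM, lists *Gapdh1* and *Nop17l* beside *cathD*. That locus was called lower in *Dys* flies and lower at 33C than on yeast, which cannot be given to *cathD* alone. The loci of *Gal*, *Tsp29Fa*, *Fuca* and *fdl*, also called in *Dys* flies, list other genes as well. The mitochondrial ATP synthase, a related rotary enzyme, had 5 of its 8 listed names on a locus, none of them called on yeast (median 0.02) and 2 called lower in *Dys* flies (median -0.52).

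Markers of tissues that carry the pump moved along with some of these differences, and their part in them was not tested. None of the markers with a locus was at 0 in any library. Of 13 midgut markers 4 rose on yeast and none fell, where 2.57% of all loci were called higher and 0.357% lower. The summed level of the 13 was 5206 to 11627 FPKM on yeast and 1649 to 4869 FPKM at 33C, against 1653 to 6446 FPKM in unstressed flies. Those that rose were the digestive enzyme genes *Amy-p*, at a joint locus, *Amy-d*, *Mal-A1* and *betaTry*. The regulators *lab* (log2 0.09), *Ptx1* (-0.04) and *esg* (0.09) were not called. Nor were the enzyme genes *Jon65Aiii*, *Jon65Aiv*, *alphaTry*, *thetaTry*, *yip7* and *LManVI* (log2 0.11 to 3.5, adjusted p of 0.12 to 0.93 in limma's test). *LManVI* is also on the lysosome list. *betaTry* and *Jon65Aiv* had the highest means of the 13 markers, 2010 and 1059 FPKM, and so weigh most in their sum. In *Dys* flies 3 midgut markers were lower and 1 higher, near the shares of all loci (21.6% and 20.3%), and in *Dg* flies 5 were lower, where 12.3% of all loci were. At 33C 12 of the 13 were lower than on yeast, where 20.3% of all loci were. Of 10 markers of Malpighian tubule and transporting epithelium none was called on yeast, and at 33C 4 fell and none rose, where 12.3% of all loci fell. Their sum was 157 to 169.6 FPKM at 33C and 168.6 to 253 FPKM on yeast, against 154 to 211 FPKM in unstressed flies. In *Dys* flies 6 of these 10 were lower and 1 higher, where 21.6% of all loci were lower, with a sum of 154 to 168.6 FPKM, against 169.6 to 253 FPKM in control flies. Among the 6, the locus of *Prip* also lists *qvr*. The marker that was higher was *tsh* (log2 0.54, adjusted p = 0.031 in limma's test), and *ZnT35C* was not called (log2 0.33, adjusted p = 0.15).

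Markers of other tissues were also called in *Dys* flies, where 21.6% of all loci were called lower and 20.3% higher. Of 11 neuronal markers 6 were lower (sum 227 to 283 FPKM in *Dys* and 340.0 to 358 FPKM in control flies), and of 6 flight muscle markers 4 were lower (sum 421 to 545 FPKM in *Dys* and 614 to 958 FPKM in control flies). The muscle markers *TpnC4* (log2 0.39, adjusted p = 0.84) and *fln* (log2 0.09, adjusted p = 0.87 in limma's test), both at joint loci, were not called. Among those called, the loci of *nSyb*, *futsch*, *VGlut*, *Gad1* and the muscle marker *wupA* also list other genes. Their values cannot be given to the marker alone. Of 11 testis markers 7 were higher in *Dys* and 5 in *Dg* flies and none lower, where 20.3% and 12.4% of all loci were higher. Their sum was 1953 to 2365 FPKM in *Dys*, 1612 to 1800.0 FPKM in *Dg* and 1272 to 1614 FPKM in control flies. *Mst98Ca* and *Mst87F* weigh most in that sum, with means of 789 and 454 FPKM. Both were called higher in *Dys* flies and neither was called in *Dg* flies (adjusted p = 0.53 and 0.41 in limma's test). The summed testis-limited pump loci had 146 to 179 FPKM in *Dys*, 129.9 to 155 FPKM in *Dg* and 109 to 149 FPKM in control flies. The pump sum includes the joint locus of *Vha100-3* and *sano*, which cannot be given to *Vha100-3* alone. That locus had 53.7 to 94.05 FPKM in *Dys*, 55.5 to 78.7 FPKM in *Dg* and 32.2 to 73.97 FPKM in control flies. Of the testis markers called in both mutants, *bol* shares its locus with *CG32032*. The higher *Vha14-2* and *Vha36-2* and the lower core genes of *Dys* flies thus stood beside higher calls among testis markers. Calls among tubule and epithelium, neuronal and muscle markers were mainly lower, and those among midgut markers were near the shares of all loci. *Vha100-5*, also classed as testis-limited, went the other way from *Vha14-2* and *Vha36-2*. It was below control in 3 of 3 conditions in *Dys* and in *Dg* flies, without passing (log2 -0.68 and -0.74). The part of the markers in these differences was not tested.

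**Figure D5:**
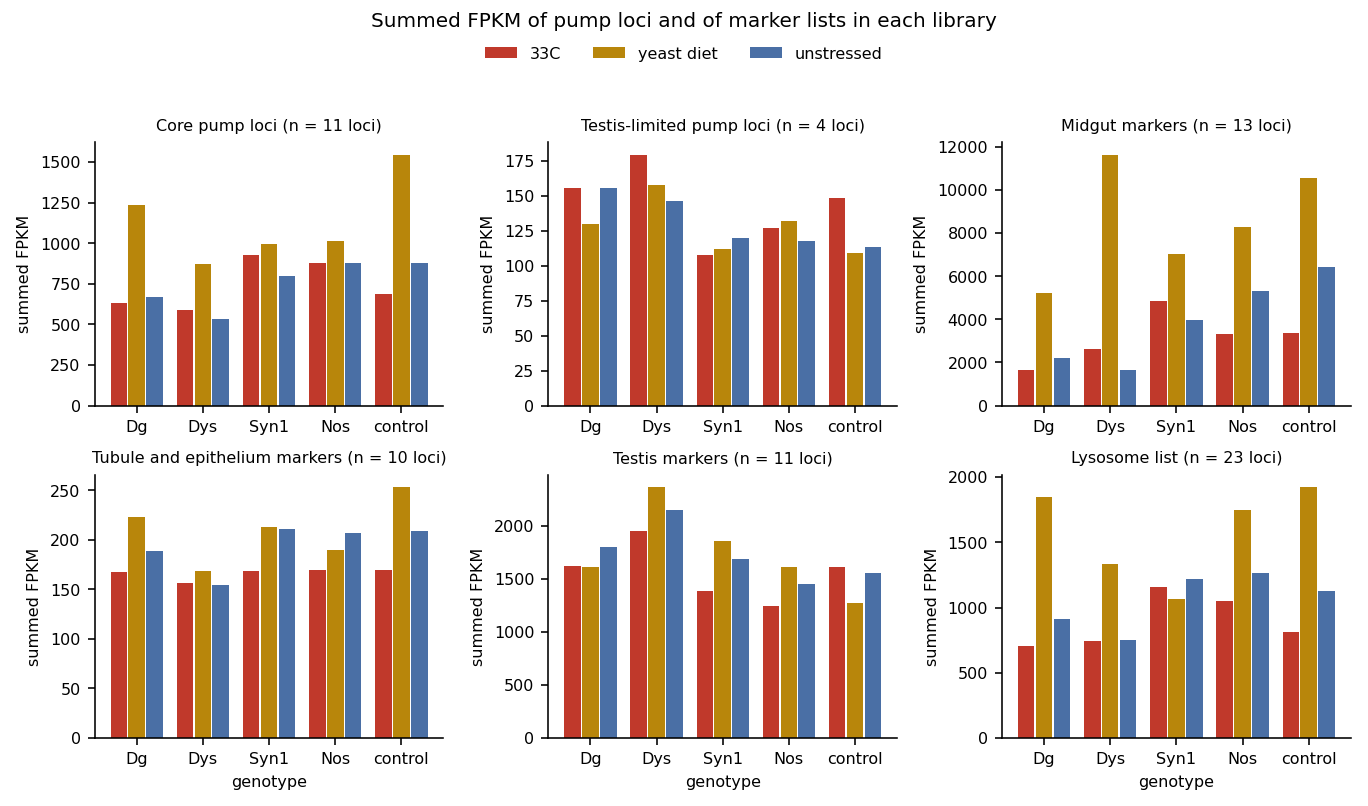
Summed FPKM (vertical axes, from 0, each on its own scale) of the core and testis-limited pump loci and of 4 gene lists in each of the 15 libraries, grouped by genotype and coloured by condition, with no error bars because each bar is 1 library. The core pump sum and the midgut sum are both highest on yeast within each genotype, and the testis marker sum of the 3 *Dys* libraries (1953 to 2365 FPKM) lies above that of the 3 control libraries (1272 to 1614 FPKM).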

How the data were processed

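RNA from 15 libraries of whole flies was analysed, 1 for each of 5 genotypes in 3 conditions. The authors deposited FPKM per locus (fragments scaled to transcript length and to library depth), with a status for each estimate. The program behind the FPKM is not given in the sources used here. The methods and processing notes of the study name STAR, DESeq2 and BDGP6, which make counts, not these values, and DESeq2 was not run here because the unit is not counts. Loci with a gene name and status OK in all libraries were kept (10350 of 10776 named and 14124 in all).

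limma 3.58.1 (R 4.3.3) was fitted to log2(FPKM + 1), so fold changes of low genes are understated, with genotype and condition as additive terms over all 15 libraries (8 residual degrees of freedom) and p-values adjusted by the Benjamini-Hochberg method over all loci at 0.1. A second fit added a control-by-stress term for each stress (6 residual degrees of freedom). The fits were tested on simulated data. Members and lists were chosen with earlier results of these data known. Values in all libraries were to be given for the highest locus of each subunit, for called members and for the members with the largest uniform ratios in each class, and all 18 members met this rule. Alternatives were a pseudocount of 0.1, a mean FPKM of at least 1, median-ratio scaling, an intensity-dependent prior variance, an adjusted p at 0.05, no condition term, and each genotype or condition left out in turn. A search of promoters for motifs was planned and not run, as no sequence was used here.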

Additional observations from a re-analysis of the deposited data

Results flagged for a closer look

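For *VhaAC45*, the accessory subunit, the log2 ratio of 33C to unstressed was -0.48 in control flies, far from the range of -0.05 to 0.11 in the 4 mutants. The gap took 0.724 of the range of the 5 genotypes, where 0.71 is the limit for 5 values by Dixon's criterion. It was the 1 such value among 36 groups checked (18 members under 2 stresses), and chance flags about 1 in 20 groups. The difference between mutants and control was 0.50 on the log2 scale and did not pass the test of that difference, with an adjusted p of 0.998 in limma. Each value is the ratio of 2 single libraries, so no error can be given for it.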

How the results depend on the processing

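Of 30 called member values, 5 stayed called in every alternative, all of them for 33C against the yeast diet. The other calls were lost in at least 1 alternative, and no called value changed sign. Of 255 alternatives of called values 177 kept the call and 78 lost it, and 10 uncalled values passed in some alternative. At an adjusted p of 0.05, 1 member was called at 33C (3 at 0.1), 0 on yeast (4 at 0.1) and 2 in *Dg* flies (4 at 0.1). A pseudocount of 0.1 gave 1 on yeast and 2 in *Dg* flies, and in *Syn1* flies the member called was then minor locus 2 of *Vha100-2*, lower, and not *Vha16-2*. Without a condition term 0 were called in *Dg* and 2 in *Dys* flies (9 with it). A mean FPKM of at least 1 left 0 called in *Syn1* flies, since *Vha16-2* was removed. Leaving out each genotype in turn gave 0 to 2 members at 33C, 0 to 4 on yeast and 6 to 12 for 33C against yeast. Leaving out each condition gave 0 to 3 in *Dg*, 0 to 11 in *Dys*, 0 to 1 in *Syn1* and 0 in *Nos* flies, with 0 for the mutant response to either stress and 0 for a 2-fold change. Fewer libraries were fitted in these, and no other cause was tested. The genotype term compares the stresses within genotype, and the condition term the mutants within condition. By replicate number no paired analysis was possible because each group holds 1 library. Read totals per library are not in the files used here, relative depth differed by up to 1.41-fold between libraries, and members at 1 to 34 fragments (*Vha16-2* and the minor *Vha100-2* loci) can show large changes only.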

Other observations

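The core sums were also taken without joint and minor loci. Summed over the 8 main core loci that list no other gene, FPKM on yeast was 1.82-fold the unstressed sum in *Dg*, 1.60-fold in *Dys*, 1.24-fold in *Syn1*, 1.12-fold in *Nos* and 1.74-fold in control flies. Against control, the same sum in *Dys* flies was 0.608-fold unstressed, 0.853-fold at 33C and 0.559-fold on yeast. No test was made of these values.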
